A study of Mus musculus with 5 samples.

Results

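The 10 genes described here encode sensors of nucleic acid in the cytosol, the adaptors and the kinase behind them, and enzymes that limit the body's own nucleic acid, out of 39179 genes in the count table. The list is one of names and applies no cut on measured values, but it was drawn up with earlier results of these data known: the RNA helicases Ddx58 (RIG-I, also named Rigi), Ifih1 (MDA5) and Dhx58 (LGP2), the sensor Zbp1, the adaptors Mavs and Tmem173 (STING, also named Sting1), the kinase Tbk1, the nuclease Trex1, the nucleotide hydrolase Samhd1 and the RNA editor Adar. Each name matched 1 Ensembl identifier, 9 of the 10 had counts, and those 9 were tested. RNA was sequenced from fetal liver cells sorted for TER119, a surface marker of maturing red cell precursors, of C57BL/6 mouse embryos at 14.5 days post conception. The 2 KO libraries came from embryos of genotype Csnk2b fl/fl, Vav+/Cre, and the 3 control libraries from embryos of genotype Csnk2b+/+, Vav+/Cre. Csnk2b encodes CK2 beta, the subunit that steers the kinase CK2 to its substrates. All 5 libraries thus carry the Cre transgene, which the Vav1 promoter drives throughout the blood-forming system and so also in blood cells other than erythroid ones, and the controls carry no floxed allele.

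Cells use these proteins to notice viral RNA and DNA. RIG-I and MDA5 bind double-stranded RNA and pass the signal to MAVS on mitochondria, with LGP2 as a modulator, while STING on the endoplasmic reticulum answers to cyclic dinucleotides made by cGAS when DNA reaches the cytosol. Both routes meet at the kinase TBK1, which activates IRF3 and so type I interferon genes, and interferon in turn raises transcription of many sensors through a transcription factor complex that contains IRF9. ADAR edits double-stranded RNA, TREX1 degrades DNA and SAMHD1 hydrolyses deoxynucleotides, and loss of any of the 3 causes an interferon disease in humans. Erythroblasts expel their nuclei while they mature, and macrophages of the fetal liver digest the DNA of those nuclei.

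Library totals ranged from 13187094 to 15366021 counts, and 13000 genes passed the filter on low counts. Csnk2b averaged 104 CPM ± 11.3 (SD, n = 2) in KO libraries and 181 CPM ± 9.54 (SD, n = 3) in controls, with an edgeR adjusted p of 0.0018. CPM are counts scaled to library size. By the raw totals 1 CPM was 13.2 to 15.4 counts, before edgeR's scaling factors of 0.97 to 1.03 were applied. The 9 erythroid markers in the table summed to 40000 to 50000 CPM in KO libraries and 45600 to 55300 CPM in controls. The 16 macrophage markers summed to 159 to 193 CPM in KO libraries and 225 to 258 CPM in controls, none was at 0 throughout, 13 were lower in both KO libraries than in all controls (19.3% of all genes tested were), and edgeR called 5 of the 15 tested lower (1.83% of all genes tested). In bulk RNA, fewer cells of a type and less RNA per cell cannot be told apart. The 9 granulocyte and monocyte markers summed to 608 to 729 CPM in KO libraries and 533 to 774 CPM in controls. Across the genes tested, the Pearson correlation of log2 (CPM + 1) was 0.992 for the KO pair and 0.996 to 0.997 for pairs of controls. The labels number the embryos but do not say whether a library holds 1 embryo or a pool, so p-values measure the spread between these libraries.

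The stretch of DNA before a gene's start is shown for 4 genes because interferon-regulated genes often carry GAAA elements there, the core letters that IRF proteins contact, and because these 4 include 3 members that rose and 1 that did not pass the test. Sequences are the 250 bases before the annotated start in RefSeq (build GRCm38.p6), 5′ to 3′ on the gene's own strand. Capitals mark every GAAA and its reverse complement TTTC.
Ddx58, chr4:40239826-40240075, minus strand: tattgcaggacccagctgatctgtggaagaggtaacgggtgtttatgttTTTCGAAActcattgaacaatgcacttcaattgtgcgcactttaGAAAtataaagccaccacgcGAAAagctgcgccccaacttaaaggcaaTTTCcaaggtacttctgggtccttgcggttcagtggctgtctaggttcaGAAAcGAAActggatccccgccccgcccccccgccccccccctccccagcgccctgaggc
Ifih1, chr2:62646256-62646505, minus strand: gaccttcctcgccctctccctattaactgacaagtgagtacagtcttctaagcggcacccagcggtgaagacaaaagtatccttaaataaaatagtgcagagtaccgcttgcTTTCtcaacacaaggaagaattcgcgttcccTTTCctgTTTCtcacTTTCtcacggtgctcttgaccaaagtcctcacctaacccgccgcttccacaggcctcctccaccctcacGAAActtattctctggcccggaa
Adar, chr3:89714772-89715021, plus strand: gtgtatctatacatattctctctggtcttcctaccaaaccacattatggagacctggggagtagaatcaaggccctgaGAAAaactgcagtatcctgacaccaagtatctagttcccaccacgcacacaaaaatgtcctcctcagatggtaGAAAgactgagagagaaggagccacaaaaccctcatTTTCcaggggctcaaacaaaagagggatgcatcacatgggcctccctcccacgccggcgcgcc
Mavs, chr2:131233813-131234062, plus strand: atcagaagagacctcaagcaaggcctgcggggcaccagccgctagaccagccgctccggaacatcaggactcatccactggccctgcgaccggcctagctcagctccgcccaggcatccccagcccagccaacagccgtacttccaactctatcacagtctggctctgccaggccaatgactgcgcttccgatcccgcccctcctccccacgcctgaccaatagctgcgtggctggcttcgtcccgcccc
The Ddx58 window holds 7 of these 4-letter elements, Ifih1 holds 5, this Adar window 3 and Mavs none. The other Adar windows hold 1 and 2. Of all 32851 windows of this length, 86.4% hold at least 1, 4.25% hold 7 or more, 16.8% hold 5 or more and 46.3% hold 3 or more. RefSeq windows were matched for 7 of the 10 members, with 10 windows in all, since Adar has 3, of which the first is shown, and Trex1 has 2. A pair of GAAA with 2 bases of any kind between them, searched on both strands, occurred in 0 of the 10, against 2.98% of all windows. The Ddx58 window holds the shorter-spaced GAAACGAAA at position -60 from the start, a pair with 1 base between. That form was searched for, on both strands, only after the window had been read, and 2.68% of all windows hold it. Samhd1 and Tbk1 each hold 2 GAAA elements. GC content was 53.6% for Ddx58, 50% for Ifih1, 65.6% for Samhd1, 65.2% for Mavs and 68.4% for Tbk1. The 3 Adar windows had 50%, 66.8% and 56.4%, and the 2 Trex1 windows 55.6% and 57.6%. Ifih1 and an Adar window were thus lowest, and Tbk1, which did not pass the test, was highest. Whether GC content goes with the change was not tested. These are matches of letters, and absence of a match says only that the letters are not in the window.

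In Csnk2b KO cells 3 RNA helicases, the RNA editor and Samhd1 were higher, and the adaptors and the kinase did not pass the test. At an edgeR adjusted p below 0.05, 5 of the 9 members tested were higher (Ddx58, Dhx58, Ifih1, Adar and Samhd1) and 0 were lower, while 4 did not pass. Among all 13000 genes tested 5.15% were higher and 1.83% lower, or 6.98% in either direction. The members called numbered 2 (Ddx58 and Adar) without control replicate 1 or 2, and 1 (Ddx58) with no filter on low counts. Genes higher over the whole table numbered 230 and 210 without those controls and 235 with no filter. With all 5 libraries and the filter they numbered 669. At an unadjusted p below 0.05 edgeR had 0 members lower. DESeq2 and limma-voom also called 0 lower, with 1 lower at an unadjusted p in DESeq2. The share of all genes past an unadjusted 0.05 was not taken, here or for the lists below. The median log2 fold change of the 9 was 0.72, beside 0.015 over all genes tested. In the same 5 members both KO libraries lay above all 3 controls, an arrangement found in 21.9% of the genes tested. In 0 members both KO libraries lay below all controls (19.3% of the genes tested). The groups of the other 4 overlapped, while in 41.2% of the genes tested the groups did not. None of the 10 lies on chromosome 17, where Csnk2b is. Of the further genes of these pathways named below, Eif2ak2 and Skiv2l do lie there.

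Ddx58, the RIG-I gene for a helicase that binds short double-stranded RNA with a 5′ triphosphate, had 44.1 and 14.1 CPM in KO replicates 1 and 2, against 2.70, 2.90 and 3.12 CPM in the controls. Both KO libraries were far above the narrow control range, and the first stood 3.12-fold above the second. In counts these were 574 and 218 reads in KO libraries and 38 to 45 in controls. The fitted log2 fold change was 3.31 ± 0.43 (SE), so that Ddx58 rose 9.93-fold (edgeR adjusted p = 0.0032). Leaving out KO replicate 1 gave 2.26 and leaving out KO replicate 2 gave 3.92. Each of those fits has a lone KO library, which is assumed to vary as the controls do. The gene passed whichever control was left out. Ddx58 lies on the minus strand of chromosome 4 (chr4:40203773-40239828 in mm10).

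Dhx58 encodes LGP2, a helicase of the same family without the signalling domains that RIG-I and MDA5 carry. It had 25.2 and 7.13 CPM in KO replicates 1 and 2, against 2.70, 2.97 and 2.98 CPM in controls. The groups did not overlap, and KO replicate 2 was 2.47-fold above the control mean while KO replicate 1 was 8.74-fold above it. Dhx58 rose 5.53-fold, with a log2 fold change of 2.47 ± 0.46 (SE) and an edgeR adjusted p of 0.015. Its exons share 141 bp with the antisense gene Dhx58os, which was listed at 0 in all libraries.

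Ifih1, the gene for the long double-stranded RNA sensor MDA5, had 92.3 and 36.3 CPM in KO replicates 1 and 2, against 17, 17.5 and 16.9 CPM in controls. The 3 controls lay within 1 CPM of each other, and the lower KO library was 2.12-fold above their mean. Ifih1 rose 3.74-fold with a log2 fold change of 1.90 ± 0.31 (SE; edgeR adjusted p = 0.0089). It was the most abundant of the 3 helicase genes in every library, also per length. The calls of Dhx58 and Ifih1 were lost without control replicate 1 or 2 (edgeR adjusted p of 0.08 and 0.085 for Dhx58, 0.055 and 0.064 for Ifih1), with log2 fold changes of 2.42 to 2.49 and 1.90 to 1.92. Without KO replicate 1 the log2 fold changes were 1.28 for Dhx58 and 1.06 for Ifih1, and without KO replicate 2 they were 3.12 and 2.43.

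Zbp1, the sensor of left-handed Z-form nucleic acid that can start necroptosis, was near the limit of detection. It had 18 and 7 reads in KO replicates 1 and 2, against 6, 7 and 10 reads in controls. That is 1.38 and 0.454 CPM in KO libraries and 0.386, 0.534 and 0.693 CPM in controls, so that KO replicate 2 lay inside the control range. Its log2 fold change was 0.72 with a 95% interval of -0.37 to 1.80 (edgeR adjusted p = 0.40), and without KO replicate 1 it was -0.25. The interval spans both signs, and the smallest change detectable at these read counts was not computed.

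**Figure D1:**
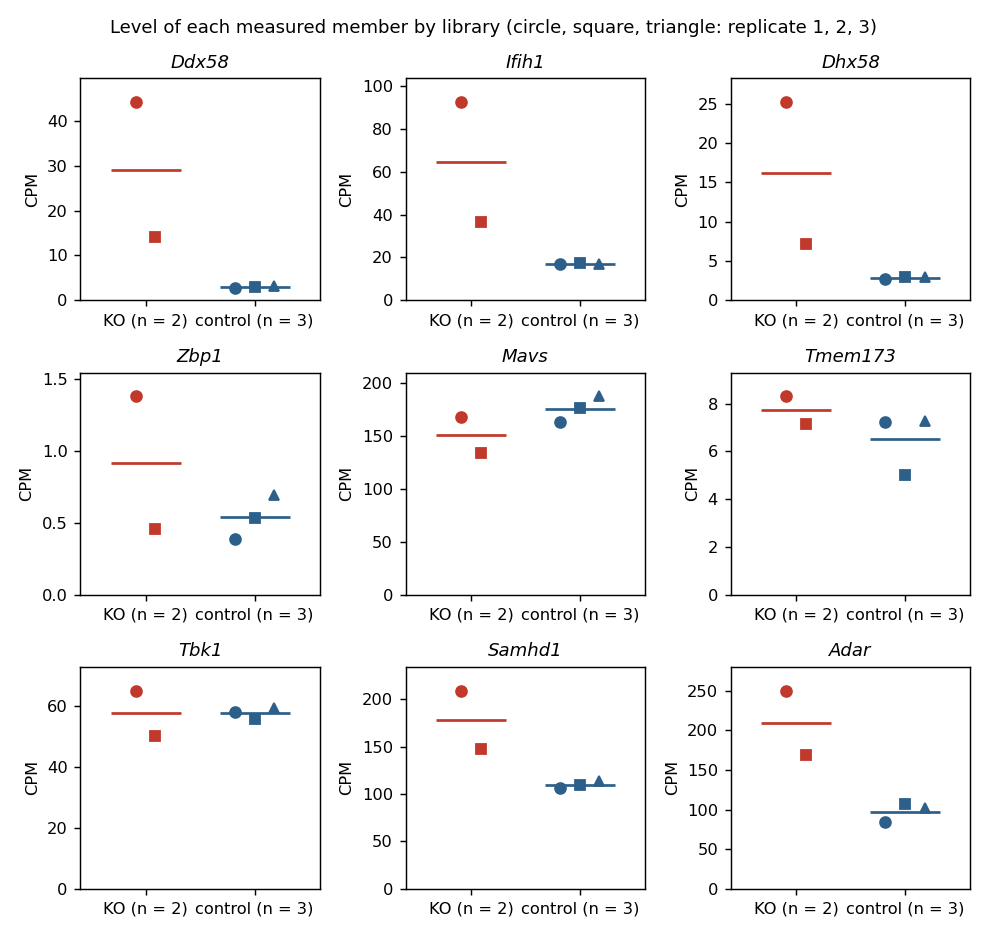
Level in CPM of the 9 members with counts in each library, KO on the left and control on the right of each panel. Each point is a library, marked by replicate number, and the line is the group mean. Ddx58, Ifih1, Dhx58, Samhd1 and Adar have both KO libraries above all controls, and KO replicate 1 is the higher KO library in every panel.

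The adaptors behind these sensors did not pass the test. Mavs, the mitochondrial adaptor of RIG-I and MDA5, was the most abundant member per length in both groups. It had 168 and 134 CPM in KO replicates 1 and 2, against 163, 176 and 187 CPM in controls. One KO library lay inside the control range and the other below it. The log2 fold change was -0.21 with a 95% interval of -0.45 to 0.03 (edgeR adjusted p = 0.26). Without KO replicate 1 it was -0.41 (edgeR adjusted p = 0.014), in a fit where the lone KO library is assumed to vary as the controls do, and without KO replicate 2 it was -0.06.

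Tmem173, the gene for STING on chromosome 18, had 8.30 and 7.13 CPM in KO libraries, against 7.21, 5.03 and 7.28 CPM in controls. The groups overlapped, and control replicate 2 was the lowest library. Its log2 fold change of 0.24 had a 95% interval of -0.19 to 0.66 (edgeR adjusted p = 0.48). Tbk1, the kinase on which both routes converge, had 65.2 and 50.2 CPM in KO libraries, against 58.1, 55.8 and 59.5 CPM in controls. The KO libraries lay on either side of the controls. Its log2 fold change was -0.01 with a 95% interval of -0.25 to 0.24 (edgeR adjusted p = 0.98), and the upper end of that interval is below the fitted value of each of the 5 members that rose. STING and SAMHD1 are known from macrophages and monocytes as well, and in these sorted cells the summed macrophage markers were lower in KO libraries, as given above. Their part in the values of Tmem173 and Samhd1 was not tested.

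Among the enzymes that limit self nucleic acid, Adar and Samhd1 rose and Trex1 could not be read. Adar, the enzyme that converts adenosine to inosine in double-stranded RNA, had 3252 and 2615 reads in KO replicates 1 and 2, against 1302, 1398 and 1475 reads in controls. It averaged 210.0 CPM ± 56.9 (SD, n = 2) in KO libraries and 97.5 CPM ± 12.1 (SD, n = 3) in controls, and both KO libraries were above the highest control. It rose 2.15-fold, with a log2 fold change of 1.10 ± 0.16 (SE) and an edgeR adjusted p of 0.0046. Adar has a constitutive and an interferon-inducible start, and the counts cover the whole gene, so the starts are not separated. Of its 8118 bp of exons, 1365 bp overlap Chrnb2 on the opposite strand, a gene with 20 to 28 reads per library.

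Samhd1, the deoxynucleotide hydrolase, had 209 and 148 CPM in KO replicates 1 and 2, against 106, 110 and 114 CPM in controls. The groups did not overlap, and KO replicate 2 was 1.34-fold above the control mean. The rise was 1.61-fold with a log2 fold change of 0.69 ± 0.13 (SE; edgeR adjusted p = 0.015). Without control replicate 1 or 2 the call was lost (edgeR adjusted p of 0.079 and 0.083), with log2 fold changes of 0.66 and 0.69. Without KO replicate 1 the value was 0.40, and without KO replicate 2 it was 0.92.

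Trex1, the main DNA exonuclease of the cytosol, was listed at 0 in all 5 libraries. All 1147 bp of its annotated exons are shared with Atrip on the same strand (chr9:109057933-109059734 in mm10). A counter that sets aside reads shared by more than 1 gene gives such a gene 0, and no source used here gives the counting settings, so its level cannot be read from this table. Atrip itself averaged 26.2 CPM ± 2.67 (SD, n = 2) in KO libraries and 23.5 CPM ± 0.434 (SD, n = 3) in controls, with a log2 fold change of 0.16 ± 0.10 (SE; edgeR adjusted p = 0.36).

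**Figure D2:**
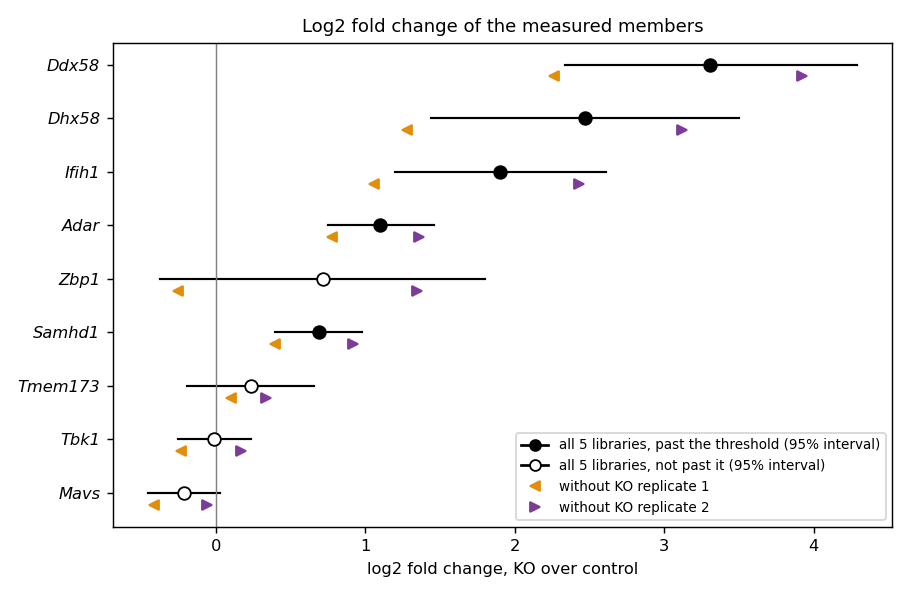
Log2 fold change of KO over control for the 9 members tested. Circles are fits with all 5 libraries and bars their 95% intervals, filled where the edgeR adjusted p was below 0.05, and triangles are fits without KO replicate 1 or 2. The intervals of Ddx58, Dhx58, Ifih1, Adar and Samhd1 lie above 0, while leaving out KO replicate 1 lowers every value and puts that of Zbp1 at -0.25.

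The KO libraries differed in how far these genes were raised. In all 9 members tested KO replicate 1 exceeded KO replicate 2, which held for 49.4% of all genes tested. Ddx58, Ifih1, Dhx58 and Zbp1, 4 of the 9, differed by at least 2-fold, against 0.838% of all genes tested. Adar and Samhd1 had ratios of 1.48 and 1.41, and Tbk1, Mavs and Tmem173 of 1.30, 1.26 and 1.16. The order of the 5 higher members was the same in both KO libraries by level over the control mean: Ddx58 at 15.2-fold and 4.86-fold in replicates 1 and 2, Dhx58 at 8.74-fold and 2.47-fold, Ifih1 at 5.39-fold and 2.12-fold, Adar at 2.56-fold and 1.74-fold, and Samhd1 at 1.89-fold and 1.34-fold. Ddx58, Dhx58 and Ifih1 were thus at least 2-fold above the control mean in each KO library, as were 1.79% of all genes tested.

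**Figure D3:**
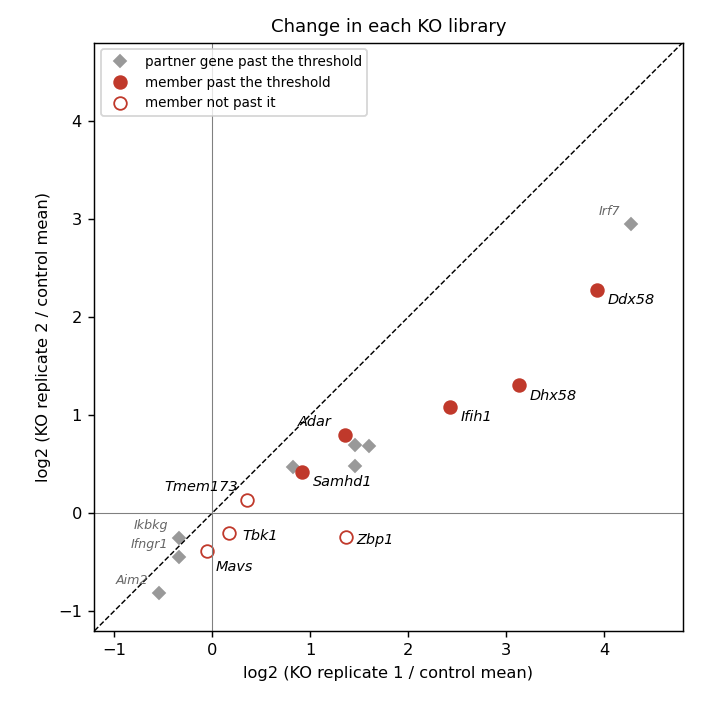
Change of each KO library against the control mean on a log2 scale, with KO replicate 1 on the horizontal and KO replicate 2 on the vertical axis. Red circles are the 9 members tested, filled where past the threshold, and grey diamonds are partner genes past it, of which Trim25, Eif2ak2, Irf9 and Stat2 are not labelled. All members lie below the dashed line of equal change, and Ddx58 at 15.2-fold and 4.86-fold is the farthest of them from the origin.

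Levels were compared between genes as CPM per kilobase of annotated exons, a scale on which genes with long rarely used exons read low. In KO libraries the order was Mavs at 45.2 ± 7.26 (SD, n = 2), Adar at 25.8 ± 7.01, Samhd1 at 19.5 ± 4.72, Tbk1 at 14.7 ± 2.72, Ifih1 at 7.87 ± 4.85, Dhx58 at 4.94 ± 3.91, Ddx58 at 4.13 ± 3.01, Tmem173 at 2.81 ± 0.303 and Zbp1 at 0.26 ± 0.186. In controls it was Mavs at 52.3 ± 3.65 (SD, n = 3), Tbk1 at 14.8 ± 0.479, Samhd1 at 12.1 ± 0.434, Adar at 12 ± 1.49, Tmem173 at 2.37 ± 0.466, Ifih1 at 2.10 ± 0.0357, Dhx58 at 0.882 ± 0.0486, Ddx58 at 0.412 ± 0.0297 and Zbp1 at 0.152 ± 0.0436. In the KO order Adar and Samhd1, Samhd1 and Tbk1, Ifih1 and Dhx58, Dhx58 and Ddx58, and Ddx58 and Tmem173 overlapped in range. In the control order Samhd1 and Adar, and Tmem173 and Ifih1, overlapped. On this per-length scale Mavs and Tbk1 were thus above all 3 helicase genes in both groups.

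The genes whose 5 values, relative to the control mean on the log2 scale, lay nearest to a member were named among 12148 genes with a mean of at least 1 CPM. For Ddx58 the nearest was Igtp, an interferon-induced GTPase gene, at a Euclidean distance of 0.355 (median over all genes 4.46). Ifih1 was nearest to Trim21, a ubiquitin ligase gene, at 0.171, Dhx58 to Parp14, an ADP-ribosyltransferase gene, at 0.189, and Adar to Uba7, the activating enzyme for ISG15, at 0.134. Igtp had 97.2 and 37.3 CPM in KO replicates 1 and 2, against 5.98, 8.61 and 7.91 CPM in controls, and Uba7 had 738 and 511 CPM in KO replicates against 266, 336 and 292 CPM in controls. Samhd1 was nearest to Sipa1l2 at 0.0791, Mavs to Gpr146 at 0.0748, Tmem173 to Prtn3, a granule protease gene of granulocyte precursors, at 0.0578, Tbk1 to Hook3 at 0.0329 and Zbp1 to Ccdc141 at 0.332. Likeness over 5 libraries is a description of these libraries only, and small changes lie near many genes.

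The 98 partner genes of these pathways, in 7 lists by role, mostly did not pass the test. Of 84 tested 6 were higher and 3 lower, beside 5.15% and 1.83% of all genes tested, and their median log2 fold change was 0.05. The counts moved when 1 control library was left out, as did those over all genes. Partners higher numbered 2, 3 and 5 without control replicates 1, 2 and 3 in turn, and partners lower 0, 0 and 1. Over all genes, those higher numbered 230, 210 and 339 in the same fits, beside 669 with all 5 libraries. Those lower numbered 53, 31 and 61, beside 238. Of 9 cofactors of the RNA helicases, Trim25, a ubiquitin ligase that activates RIG-I, was the 1 called. It had 241 and 189 CPM in KO replicates 1 and 2, against 128, 144 and 137 CPM in controls (log2 fold change 0.66 ± 0.10, SE; edgeR adjusted p = 0.0079). Without control replicate 1 its edgeR adjusted p was 0.053. Ddx60, a helicase reported as a RIG-I cofactor and named after its values were seen, had 7.84 and 0.778 CPM in KO libraries and at most 0.386 CPM in controls, and missed the threshold with a log2 fold change of 3.85 ± 1.00 (SE; edgeR adjusted p = 0.053). Its reads numbered 102 and 12 in KO libraries and 6, 1 and 5 in controls, so Ddx60 passed the filter through KO libraries alone. DESeq2 called it (adjusted p = 0.047) and limma-voom did not (adjusted p = 0.12). Without KO replicate 1 its log2 fold change was 1.43.

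Among 14 other nucleic acid sensors tested, 1 was higher and 1 lower, beside 5.15% and 1.83% of all genes tested. Eif2ak2, for the double-stranded RNA kinase PKR, had 125 and 66.3 CPM in KO replicates 1 and 2, against 38.5, 40.9 and 44.0 CPM in controls, a 2.32-fold rise (edgeR adjusted p = 0.012). Aim2, the DNA sensor of an inflammasome, had 23.1 and 19.2 CPM in KO libraries, against 36.1, 33.2 and 32 CPM in controls. Both KO libraries were below all controls, and Aim2 fell by 0.68 ± 0.11 (SE) on the log2 scale (edgeR adjusted p = 0.0081). Eif2ak2 lost its call without control replicate 1 or 2 (edgeR adjusted p of 0.071 and 0.077), as did Aim2 (0.055 and 0.051), and the log2 fold change of Eif2ak2 was 0.67 with KO replicate 1 left out. Aim2 is known in macrophages, whose summed markers were lower in KO libraries, and their part in its decrease was not tested. Cgas, the enzyme that senses DNA upstream of STING, named after its values were seen, had 8.07 and 7.65 CPM in KO libraries, against 5.47, 4.73 and 5.76 CPM in controls, and missed the threshold with a log2 fold change of 0.56 ± 0.15 (SE; edgeR adjusted p = 0.055).

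Of the 16 genes that relay signals to IRF3 and NF-kB, 0 were higher and 1 lower. Over all genes tested 5.15% were higher and 1.83% lower. That gene was Ikbkg, for the regulatory subunit NEMO, with 110.0 and 117 CPM in KO libraries, against 135, 142 and 139 CPM in controls (log2 fold change -0.29 ± 0.07, SE; edgeR adjusted p = 0.037). It lost the call without control replicate 1, 2 or 3 (edgeR adjusted p of 0.11 to 0.15). At an unadjusted p below 0.05, edgeR had 4 of the list higher and limma-voom 4, while DESeq2 had 0, and none of the 3 tools called any higher after adjustment. In the 12 genes for STING trafficking and turnover, edgeR, DESeq2 and limma-voom had 0 genes past an unadjusted 0.05. No share over all genes was taken at that cut. The unadjusted counts for the 16 relay genes and the 12 STING genes thus have no background to be read against. Trim56, an abundant gene of that list for a ubiquitin ligase that acts on STING, had a log2 fold change of -0.16 ± 0.09 (SE; edgeR adjusted p = 0.34). With KO replicate 1 left out Trim56 was at -0.33, in a fit with a lone KO library.

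Neither the 6 partners of ZBP1 nor the 13 further nucleases and RNA processing factors tested had a call in edgeR, DESeq2 or limma-voom. In edgeR 6.98% of all genes tested had a call in either direction. Lists of 6 and 13 genes are too short to set 0 calls apart from that share. At an unadjusted p below 0.05 in edgeR, 1 ZBP1 partner was higher and 2 of the nuclease list were lower. No share over all genes was taken at that cut, so these counts have no background to be read against. Ripk1 and Ripk3, kinases of the necroptosis pathway, had log2 fold changes of 0.03 ± 0.08 and 0.30 ± 0.10 (SE), with Ripk3 at 32.9 and 40.0 CPM in KO replicates and 30.8, 29.0 and 28.9 CPM in controls. With KO replicate 1 left out Ripk3 was at 0.41, in a fit with a lone KO library. Skiv2l, for an RNA helicase of the cytosolic exosome, and Lmnb1, for lamin B1, had log2 fold changes of 0.05 ± 0.08 and -0.09 ± 0.07 (SE).

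In the list of interferon ligands, receptors and transcription factors, Irf7, Irf9 and Stat2 were among the genes called higher. The 9 ligand genes on that list had almost no reads. The transcription factor genes Irf1, Irf2 and Irf8 did not pass, with log2 fold changes of 0.22 ± 0.22, -0.11 ± 0.11 and 0.42 ± 0.15 (SE). With KO replicate 1 left out Irf2 was at -0.31, in a fit with a lone KO library. Of 9 interferon ligand genes listed, 7 were at 0 in all 5 libraries (Ifnb1, Ifna1, Ifna2, Ifna4, Ifnk, Ifne and Ifnl3) and the others had at most 1 read in any library. A count of 0 allows up to 3 reads, or 0.193 to 0.231 CPM, counting error only. The limit holds for reads that the table counted, and a 0 in it need not mean few transcripts: all 37 mitochondrial genes are listed at 0 in every library. Of the 16 other genes of that list tested, 4 were higher and 1 lower, beside 5.15% and 1.83% of all genes tested. Irf7, which with IRF3 switches on interferon genes, had 198 and 78.9 CPM in KO replicates 1 and 2, against 6.95, 12 and 11.7 CPM in controls (log2 fold change 3.77 ± 0.36, SE; edgeR adjusted p = 0.00093). With KO replicate 1 left out, Irf7 had a log2 fold change of 2.94. Irf9 rose 2.18-fold (edgeR adjusted p = 0.0099) and lost the call without control replicate 1 or 2 (edgeR adjusted p of 0.06 and 0.058). Stat2 rose 2.06-fold (edgeR adjusted p = 0.027), and Ifngr1, a receptor chain for interferon gamma, fell by 0.39 ± 0.09 (SE) on the log2 scale (edgeR adjusted p = 0.04), both named after their values were seen. Stat2 lost the call in DESeq2 (adjusted p = 0.057), in limma-voom (adjusted p = 0.051) and without any 1 of the controls (edgeR adjusted p of 0.081 to 0.12), and had a log2 fold change of 0.46 without KO replicate 1. Ifngr1 lost it in DESeq2 (adjusted p = 0.084), without any 1 of the controls (edgeR adjusted p of 0.10 to 0.17) and without KO replicate 2 (edgeR adjusted p = 0.11).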

How the data were processed

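Purified mRNA was sequenced on an Ion Proton in 5 libraries, 2 KO and 3 control, grouped by title. The submitters' processing notes name build mm10 and cutadapt, STAR, Bowtie and HTSeq; no source used here gives versions or settings, strand included. Deposited values are raw counts by Ensembl gene, whole numbers that the authors left unnormalised, with totals of 13187094 to 15366021. Symbols, exon lengths and coordinates came from GENCODE release M21 (37607 of 39179 identifiers matched).

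From these, edgeR 4.0.16 (R 4.3.3) gave quasi-likelihood tests with TMM scaling, filterByExpr and Benjamini-Hochberg adjustment over 13000 genes, with a threshold of 0.05 and genotype as the single term. CPM use TMM-adjusted library sizes, and log2 CPM, except in the correlations, a prior count of 2. The standard error is the log2 fold change over the root of F, and 95% intervals use the moderated degrees of freedom. The steps were tested on simulated counts. Within groups, the chi-square per degree of freedom was 17.7 for the KO pair and 4.30 to 6.35 for pairs of controls. No library was thus counted as a copy of another. The tests fit the spread of each gene over both groups together.

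The members and lists were chosen with earlier results of these data known. Partner genes named were, in each list, up to 3 by smallest p among those called, or else the 2 most abundant; the nearest gene to each member was also named, and Ddx60, Cgas, Stat2, Ifngr1, Irf1, Irf2 and Irf8 were named after their values were seen. Some genes that these rules select are not reported here. Alternatives were DESeq2 1.42.0, limma-voom (limma 3.58.1), RLE scaling, library sizes that leave out globin genes and mitochondrial genes (the 37 mitochondrial genes are listed at 0, so that only globin counts were left out), no filter, a filter of 5 CPM in 2 libraries, the replicate number as a block, and each library left out in turn.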

Additional observations from a re-analysis of the deposited data

How the results depend on the processing

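Members called higher numbered 5 in all 12 alternatives except without a filter on low counts (1) and without control replicate 1 or 2 (2 in each), so they ranged from 2 to 5 when a library was left out. Ddx58 passed in all 12, with log2 fold changes of 2.26 to 3.92. Members called lower numbered 0 except without KO replicate 1, where Mavs made it 1. Partners called higher ranged from 2 to 9 and partners called lower from 0 to 10 when a library was left out, and without a filter on low counts they were 2 and 0. Over all genes, those higher ranged from 210 to 1709 and those lower from 31 to 1247 when a library was left out, and without a filter on low counts they were 235 and 53. A fit that leaves out a KO library has a lone KO library, which is assumed to vary like the controls. With the replicate number as a block, 702 genes were higher and 171 lower, 5 members were higher and 0 lower, and partners lower numbered 1. Deviations from the group mean had correlations of 0.015 and 0.068 between libraries with the same number. With 2 KO libraries the deviations of 1 mirror those of the other, so these are not separate checks. They cannot show whether libraries share a litter or day, and the number is not known to mark either.

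Sign changes occurred, among the 41 genes followed, in 8 that did not pass with all 5 libraries. When a library was left out, the log2 fold change of Tbk1 ranged from -0.23 to 0.17 (0.02 without control replicate 3), that of Zbp1 from -0.25 to 1.35, Ccdc141 from -0.09 to 1.02, Hook3 from -0.20 to 0.16 (-0.03 without control replicate 2), Skiv2l from -0.02 to 0.10, Irf1 from -0.10 to 0.48, Irf2 from -0.31 to 0.05 and Ripk1 from -0.01 to 0.07. Tbk1 was also at 0.01 with the replicate block, and Hook3 at -0.01 with RLE scaling, scaling without globin and mitochondrial genes, DESeq2, limma-voom or the stricter filter, and at -0.00 with no filter. The causes were not tested. Of the 485 values of single genes under an alternative, 410 kept direction and side of the threshold, 44 lost the call and 14 gained it. Counts of 18 and 7 reads in KO libraries limit what can be read for Zbp1, which had no value under the stricter filter, in DESeq2 and without control replicate 1 or 3.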
